A study of Mus musculus with 6 samples.

Results

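The cytochrome P450 genes of families 1 to 3 are the drug- and steroid-metabolising P450s of the mouse. They were taken from the gene table of the series as every gene whose symbol begins with Cyp1, Cyp2 or Cyp3 followed directly by a letter, with hyphenated names (mostly pseudogenes) left out. The rule used names only and no measured value. It found 61 genes of the 55573 in the table, in 17 subfamilies (a subfamily is given by the letter, as in Cyp2c). The table holds 6 polyA RNA libraries of mouse liver from animals on normal feed. Libraries labelled p21TKO came from G3p21-/-mTR-/-Wrn-/- mice, which lack p21 (the cell-cycle inhibitor encoded by Cdkn1a), the telomerase RNA mTR and the Werner helicase Wrn. Libraries labelled DKO came from mice of genotype G3mTR-/-Wrn-/-. Each group had 3 libraries, all of generation 3, so loss of telomerase RNA and of Wrn was shared by both groups and the comparison addressed the loss of p21. The labels give no sex, do not say in which cells or how the alleles were deleted, and do not say that the replicates were separate animals. The p-values below therefore measure only the spread between these libraries. Age is not used here, because the labels do not spell it out.

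Microsomal P450s insert an oxygen atom into drugs, toxins, steroids, bile acids and fatty acids, with electrons passed on by P450 oxidoreductase. In liver they are made mostly by hepatocytes, many of them in the hepatocytes around the central vein. Their genes sit in tandem clusters of close copies and are switched on by receptors that sense foreign compounds, and in rodents by the sex-specific rhythm of growth hormone. Inflammation is known to lower many of them.

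Expression was deposited as FPKM, fragments scaled to transcript length and to library size, so levels can be set side by side between genes. The reads behind the values were between 19363284 and 27061290 per library, and 18271 to 19535 genes were above 0. Of the targeted gene, Cdkn1a, the libraries labelled p21TKO held 1.41, 11.1 and 6.5 FPKM, against 0.761, 1.79 and 0.405 FPKM in the libraries labelled DKO. A gene-level value does not show which part of the gene was deleted, so the labels could not be checked with it, and they are given below as labels. The Y-linked transcript Ddx3y was at 12.6, 0 and 0 FPKM in p21TKO 1, 2 and 3, against 0, 11.6 and 11.4 FPKM in DKO 1, 2 and 3. Xist, the X-inactivation RNA, was at 0.00576, 7.35 and 1.79 FPKM in p21TKO 1, 2 and 3, against 20.9, 0 and 0.00501 FPKM in DKO 1, 2 and 3. Libraries with Y-linked transcripts were thus p21TKO 1, DKO 2 and DKO 3, and libraries without them were p21TKO 2, p21TKO 3 and DKO 1. Values within each of these sets are given beside the results. The hepatocyte markers Alb, Apoa1, Ttr, Serpina1a and Tat were high in all 6 libraries, with sums between 49121 and 53346 FPKM in p21TKO and between 36834 and 47214 FPKM in DKO. Hereafter 3 values in a row are libraries 1, 2 and 3 of a group, and means are ± SD with n = 3.

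Markers of other cells and of inflammation also differed between libraries. All 5 neutrophil markers were highest in p21TKO 2 and second in p21TKO 3, with sums of 23.6, 539.6 and 216 FPKM in p21TKO against 9.81, 27 and 11.8 FPKM in DKO. The 10 acute phase genes, which the liver turns on in inflammation, summed to 5764, 57315 and 27658 FPKM in p21TKO against 8707, 10864 and 8424 FPKM in DKO. All 10 had a positive difference. Saa1, Saa2 and Saa3 were nevertheless lower in p21TKO 3 than in DKO 2, with Saa1 at 176 against 399 FPKM. The 5 Kupffer cell markers summed to 15.3, 152 and 86.6 FPKM in p21TKO against 59.9, 37.9 and 24.4 FPKM in DKO. Of the p21TKO 3 sum Marco held 45.1 FPKM. Marco and Vsig4 were higher in p21TKO 3 than in DKO 1. Clec4f, Cd5l and Adgre1 were lower there, at 11.2 against 20.1, 15.8 against 24.9 and 0.97 against 1.56 FPKM. The 5 liver endothelial markers summed to 5.44, 53.6 and 26.3 FPKM in p21TKO against 15.1, 8.24 and 9.54 FPKM in DKO. Stellate cell markers summed to between 21.4 and 35.1 FPKM in p21TKO and between 10.6 and 20.6 FPKM in DKO. Of the p21TKO sums Dcn held 13.6, 30 and 31.1 FPKM, while Lrat, Reln, Pdgfrb and Col1a1 were each highest in p21TKO 1. Cholangiocyte markers summed to between 6.91 and 27.3 FPKM in p21TKO and between 7 and 18.5 FPKM in DKO. Of the lung and olfactory markers Scgb1a1 was at 0 in every library, and of the pancreas markers Prss2 and Amy2a5 were. The pancreas marker Cela1 was not, at 17.5, 2.61 and 3.09 FPKM in p21TKO against 4.58, 4.66 and 7.3 FPKM in DKO. Omp, Foxj1 and Cpa1 were above 0 in some libraries, at up to 0.122 FPKM. None of the tested genes in these lists was called. The part of other cell types and of inflammation in the P450 differences was not tested. The highest sums of the acute phase, neutrophil, Kupffer cell and endothelial lists were in p21TKO 2 and 3. These were also the p21TKO libraries without Y-linked transcripts. In bulk liver, fewer cells of a type and less RNA per cell cannot be told apart.

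The close copies within the clusters set how single genes can be read. Of 37 tested members with another member in their subfamily, 15 had one whose coding sequence was at least 95% identical, so reads may have been divided between copies, and those genes are uncertain one by one. Cyp2a4 and Cyp2a5, at 98.4% identity, had different orders across libraries (values below), although 249 aligned bases just before their starts differ at only 4 positions. Both stretches are shown for that reason. They are from RefSeq (GRCm38.p6), on the plus strand, at chr7:26306943-26307191 for Cyp2a4 and chr7:26835089-26835337 for Cyp2a5, with the differing bases in capitals.
Cyp2a4: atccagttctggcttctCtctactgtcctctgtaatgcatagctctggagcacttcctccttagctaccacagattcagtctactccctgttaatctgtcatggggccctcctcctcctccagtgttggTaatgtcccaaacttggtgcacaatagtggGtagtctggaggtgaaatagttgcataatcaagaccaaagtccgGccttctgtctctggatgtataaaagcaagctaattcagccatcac
Cyp2a5: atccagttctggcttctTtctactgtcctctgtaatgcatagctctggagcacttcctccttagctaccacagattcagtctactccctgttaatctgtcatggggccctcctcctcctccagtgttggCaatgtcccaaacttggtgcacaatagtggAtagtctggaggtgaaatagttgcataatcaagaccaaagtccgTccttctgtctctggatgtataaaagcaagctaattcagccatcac

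Cyp2b9 and Cyp2b13 were high and low in the same libraries. The 250 bases before their starts, at chr7:26173159-26173408 for Cyp2b9 and chr7:26061245-26061494 for Cyp2b13 (RefSeq, GRCm38.p6, plus strand), differ at 2 positions, again in capitals.
Cyp2b9: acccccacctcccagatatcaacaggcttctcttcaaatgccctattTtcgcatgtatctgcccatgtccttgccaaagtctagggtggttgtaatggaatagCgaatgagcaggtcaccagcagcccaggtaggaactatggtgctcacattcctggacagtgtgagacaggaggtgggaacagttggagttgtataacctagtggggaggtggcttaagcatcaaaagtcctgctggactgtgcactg
Cyp2b13: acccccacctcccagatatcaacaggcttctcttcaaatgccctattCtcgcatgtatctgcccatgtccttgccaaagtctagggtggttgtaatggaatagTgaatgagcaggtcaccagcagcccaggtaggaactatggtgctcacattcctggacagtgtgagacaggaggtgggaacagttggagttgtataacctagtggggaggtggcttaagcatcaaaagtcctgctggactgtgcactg

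The 4 female-predominant genes of the Cyp3a cluster share a stretch that holds, in 3 of them, the 9 letters CAAAGTCCA, a form of the word bound by the hepatocyte factor Hnf4a. The 41 bases around it are shown to compare the copies, from RefSeq (GRCm38.p6) on the minus strand at chr5:145469798-145469838 for Cyp3a16, chr5:145720207-145720247 for Cyp3a41a, chr5:145584801-145584841 for Cyp3a41b and chr5:145805945-145805985 for Cyp3a44. Capitals mark the 9 letters, or those at the same place in Cyp3a44.
Cyp3a16: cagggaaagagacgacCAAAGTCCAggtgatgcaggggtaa
Cyp3a41a: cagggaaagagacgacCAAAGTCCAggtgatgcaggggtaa
Cyp3a41b: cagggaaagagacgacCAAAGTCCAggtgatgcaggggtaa
Cyp3a44: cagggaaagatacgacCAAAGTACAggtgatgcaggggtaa

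CAAAGTCCA, searched on both strands of the 250 bases before the start, was in 9 of 37 tested members with a RefSeq promoter and in 126 of 32851 promoter windows of all genes (0.384%). The 9 were Cyp3a16, Cyp3a41a, Cyp3a41b, Cyp3a11, Cyp2c67, Cyp2c68, Cyp2c40, Cyp2c69 and Cyp2c70, all in the Cyp3a and Cyp2c clusters, whose copies share sequence. TNGCGTG, the core word of the aryl hydrocarbon receptor, was in 1 of the 37 (Cyp2c68) and in 4.1% of all windows. TTCNNNGAA, the word of the growth hormone effector Stat5b, was in 0 of the 37 and in 7.02% of all windows. In Cyp2c68, which holds both of the first words, they do not overlap, and a match or its lack in this window describes the letters alone.

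Summed over all 61 genes, families 1 to 3 reached 8281, 6158 and 4976 FPKM in libraries labelled p21TKO, against 11144, 8335 and 10765 FPKM in libraries labelled DKO. The means were 6472 ± 1675 FPKM in p21TKO and 10081 ± 1524 FPKM in DKO, and the groups did not overlap, although p21TKO 1 and DKO 2 differed by little. The share of recovered reads that fell in these genes was 2.04%, 1.43% and 1.42% in p21TKO against 2.83%, 1.92% and 2.8% in DKO. Their share of the summed FPKM of all genes was 1.75%, 1.43% and 1.29% in p21TKO against 3.03%, 1.66% and 2.69% in DKO. On both shares the groups overlapped, with p21TKO 1 above DKO 2. Of the 61 genes, 42 had a mean of at least 1 FPKM and were tested.

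**Figure D1:**
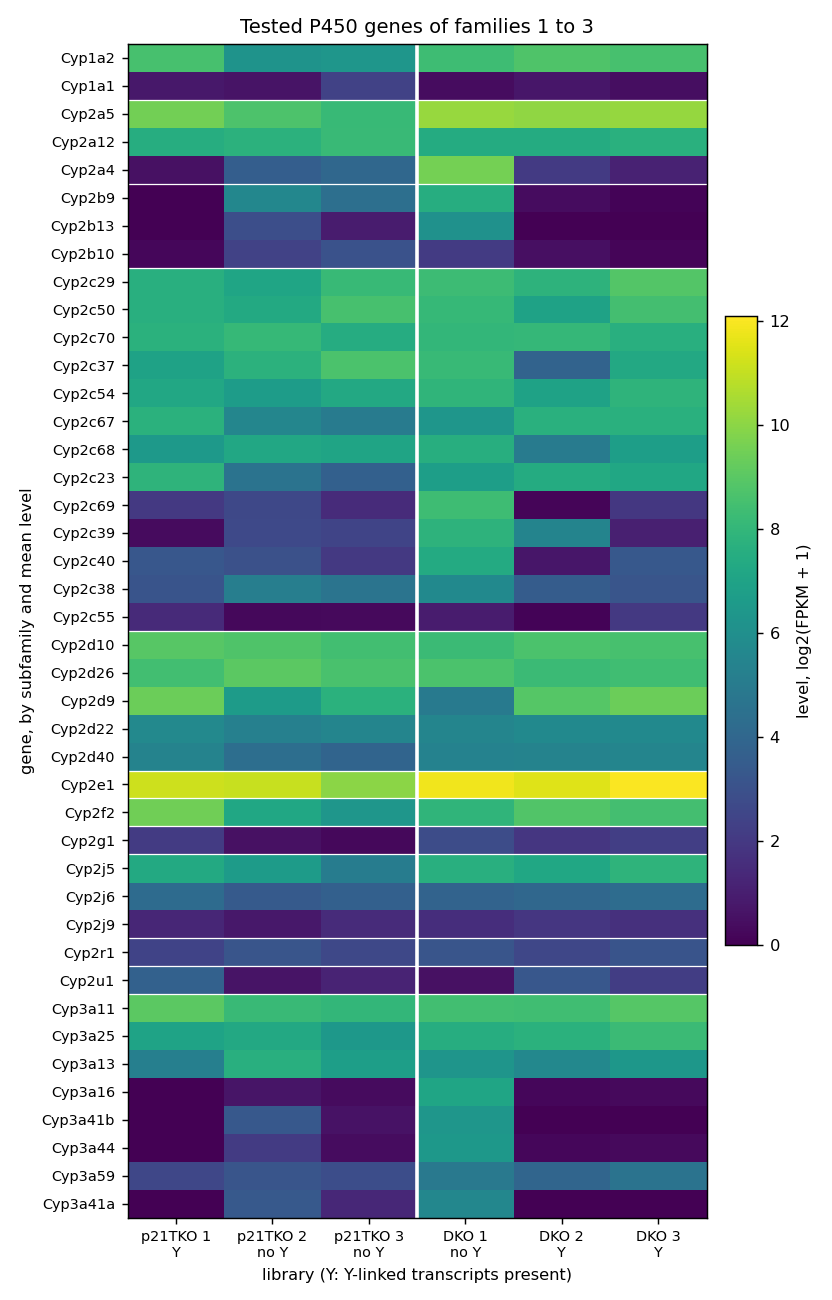
Levels of the 42 tested P450 genes, log2(FPKM + 1), by library (columns, p21TKO left of DKO, with the presence of Y-linked transcripts marked) and gene (rows, grouped by subfamily and ordered by mean level). Cyp2e1 is the brightest row in all 6 libraries, and DKO 1 alone is bright in rows such as Cyp2a4, Cyp2c69, Cyp3a16 and Cyp3a44.

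No single P450 gene was called at an adjusted p under 0.05, in either direction. The test was limma on log2(FPKM + 1), with Benjamini-Hochberg adjustment over all 9538 genes tested, and the smallest adjusted p among the 42 members was 0.252. Over all genes it called 4 lower in p21TKO (0.0419%) and 3 higher (0.0315%). At an unadjusted p under 0.05, 6 of the 42 members were lower (14.3%) and 0 were higher, against 5.29% of all genes lower and 4.09% higher. The groups did not overlap for 5 members, all lower in p21TKO (Cyp2e1, Cyp2a5, Cyp3a25, Cyp3a59 and Cyp2j9). That is 11.9% of the members, against 8.49% of all genes lower and 6.93% higher, so the share was near the background. With voom on the recovered reads no member was called either, 4 had an unadjusted p under 0.05 and the smallest adjusted p was 0.312.

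The log2 difference, p21TKO minus DKO, was negative for 30 of the 42 members (71.4%), against 49.8% of all tested genes. This difference understates the change of low genes. Its median was -0.52 over members and 0.0016 over all genes. Among libraries without Y-linked transcripts the median over members was -0.86 and 33 were negative. Among libraries with them the median was -0.07 and 24 were negative. Over all libraries but DKO 1 it was -0.15. Over the 30 tested members outside the sex-predominant lists named further on, it was -0.43 and 21 were negative. Members are not replicates, and close copies share reads, so no test was made over them.

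**Figure D2:**
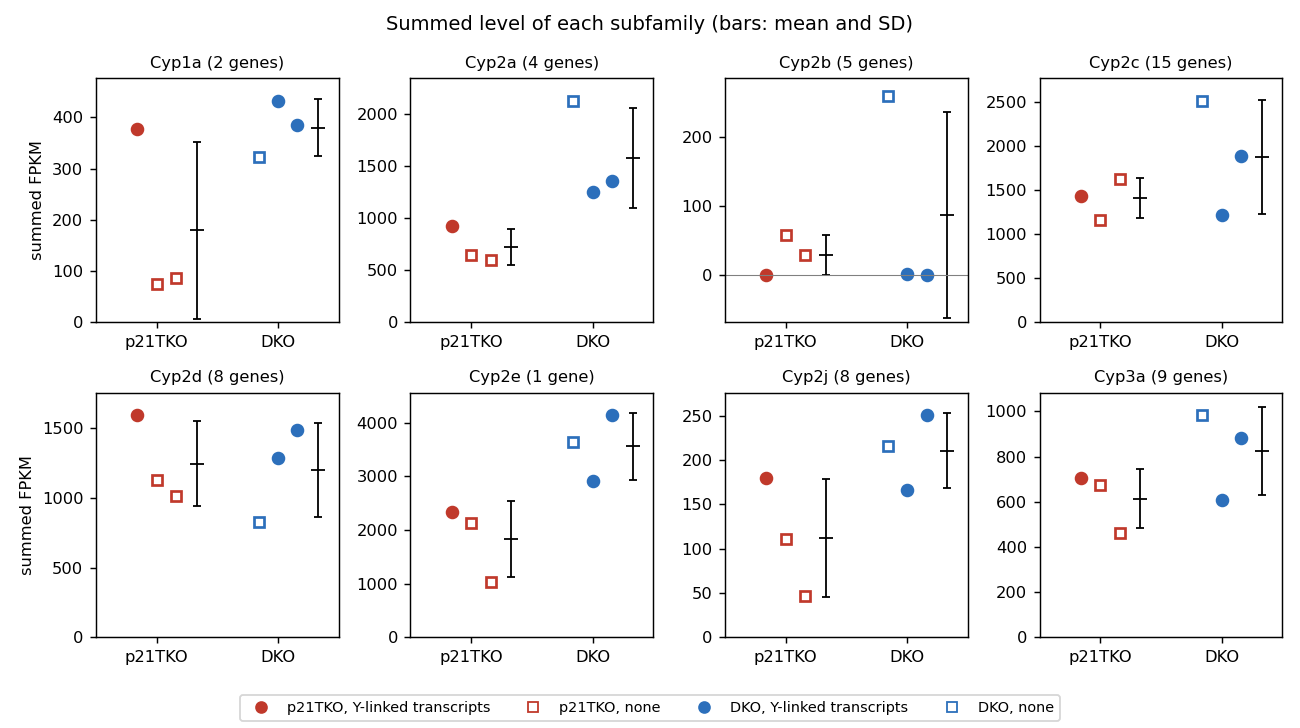
Summed FPKM of 8 subfamilies by library, p21TKO (red) left of DKO (blue), filled where Y-linked transcripts were present and open where they were not. Bars give the mean and SD over 3 libraries, and only in Cyp2a and Cyp2e do the groups not overlap.

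The subfamily sums depend less than single genes on how reads were divided between copies, although copies differ in length. The Cyp2a genes summed to 923, 651 and 596 FPKM in p21TKO, against 2132, 1249.9 and 1363 FPKM in DKO, with no overlap. Cyp2c sums averaged 1408 ± 230.1 FPKM in p21TKO and 1875 ± 646 FPKM in DKO, and overlapped. Cyp3a sums averaged 613 ± 131 FPKM in p21TKO and 824 ± 194 FPKM in DKO, and overlapped. Cyp2d sums averaged 1246 ± 305 FPKM in p21TKO and 1200.2 ± 335 FPKM in DKO, with each group on both sides of the other. Subfamilies thus differed in direction and in spread, and Cyp2a and Cyp2e held the clearest separation.

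Cyp2e1 (GENCODE M21, GRCm38, chr7:140763739-140774987), which oxidises ethanol, acetone and acetaminophen around the central vein, was the most abundant member in every library. Its level was 2338, 2137 and 1030.1 FPKM in p21TKO, against 3633, 2902 and 4132 FPKM in DKO. Every p21TKO library lay under every DKO library. The log2 difference was -1.03 ± 0.42 (SE), with an adjusted p of 0.523 by limma, so it was not called. It was -0.57 among libraries with Y-linked transcripts and -1.29 among those without.

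Cyp2a5 (chr7:26835305-26843548), the coumarin and nicotine hydroxylase, stood at 739, 422 and 285 FPKM in p21TKO, against 1189.7, 1072 and 1159 FPKM in DKO. The groups did not overlap, and the 3 DKO values lay within a narrow range. The log2 difference was -1.35 ± 0.41 (SE) and the limma adjusted p was 0.523. It was -0.59 with Y-linked transcripts and -1.78 without. With p21TKO 1 left out it was -1.72 and was called, at an adjusted p of 0.0335. Cyp2a12, a steroid and bile acid hydroxylase of the same cluster, did not share this order, with 183, 218 and 296 FPKM in p21TKO against 172, 174 and 203 FPKM in DKO.

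Cyp1a2, the caffeine- and arylamine-oxidising enzyme controlled by the aryl hydrocarbon receptor, was at 377, 73.6 and 82.2 FPKM in p21TKO, against 322, 432 and 385 FPKM in DKO. Of its p21TKO values p21TKO 1 lay in the DKO range and p21TKO 2 and 3 lay far under it. The log2 difference was -1.51 ± 0.64 (SE) with an adjusted p of 0.523. In libraries without Y-linked transcripts it was -2.03, where p21TKO 2 and 3 held 22.9% and 25.6% of the DKO 1 level. In libraries with them it was -0.11. Without p21TKO 1 the difference was -2.26, called at an adjusted p of 0.0131. Cyp1a1, the inducible member of the pair, stayed low at 0.741, 0.531 and 4.22 FPKM in p21TKO against 0.329, 0.65 and 0.387 FPKM in DKO.

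**Figure D3:**
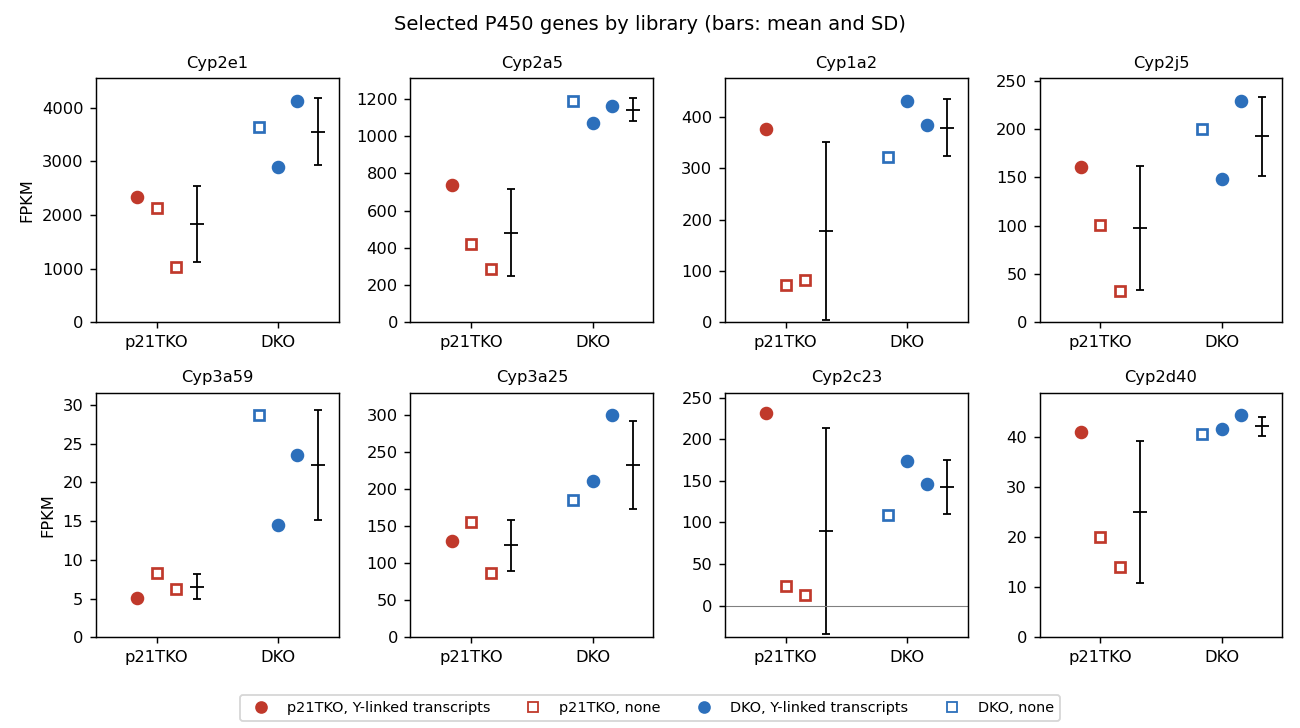
FPKM of 8 P450 genes by library, p21TKO (red) left of DKO (blue), filled where Y-linked transcripts were present and open where they were not, with bars for mean and SD over 3 libraries. In Cyp2e1, Cyp2a5, Cyp3a59 and Cyp3a25 the groups do not overlap. In Cyp1a2, Cyp2c23 and Cyp2d40 the filled p21TKO point lies among or above the DKO points and the open p21TKO points lie under them.

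In the Cyp3a cluster of chromosome 5, Cyp3a11 and Cyp3a13 had overlapping groups, and Cyp3a25 and Cyp3a59 did not. Cyp3a11, the main drug-oxidising enzyme under the pregnane X receptor, was at 534, 292 and 259 FPKM in p21TKO, against 341, 333 and 475 FPKM in DKO. Cyp3a25 was at 129, 155 and 87.1 FPKM in p21TKO, against 186, 211 and 299 FPKM in DKO, a log2 difference of -0.91 ± 0.33 (SE) with an adjusted p of 0.523. Cyp3a13 was at 35.7, 195 and 109 FPKM in p21TKO, against 77.1, 48.4 and 84.2 FPKM in DKO, with p21TKO 1 the lowest library of all.

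Cyp3a59 (chr5:146079257-146113287) had the smallest p of the members. It stood at 5.06, 8.25 and 6.29 FPKM in p21TKO, against 28.6, 14.6 and 23.6 FPKM in DKO, and the groups did not overlap. The means were 6.53 ± 1.61 FPKM in p21TKO and 22.3 ± 7.14 FPKM in DKO. The log2 difference was -1.60 ± 0.29 (SE), and the limma adjusted p was 0.252. It was -1.69 among libraries with Y-linked transcripts and -1.85 among those without. Cyp3a59 and Cyp3a25 share 97.5% of their coding sequence, so their 2 values are not independent.

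The Cyp2c cluster of chromosome 19 held 15 members, of which 13 were tested, 9 with a negative difference and none with groups that did not overlap. Cyp2c29, an arachidonic acid epoxygenase, was at 195, 136 and 287 FPKM in p21TKO against 317, 228 and 460.4 FPKM in DKO. Cyp2c50 was at 197, 163 and 378 FPKM in p21TKO against 270.2, 126 and 354 FPKM in DKO. Cyp2c70, which makes the muricholic acids of mouse bile, was at 208, 277 and 179.7 FPKM in p21TKO against 259, 265 and 199 FPKM in DKO. The groups overlapped for each of these abundant genes.

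Cyp2c39, known in mouse to oxidise retinoic acid, had the smallest p of the cluster and a wide spread. It was at 0.284, 5.44 and 4.54 FPKM in p21TKO, against 224, 43.3 and 1.06 FPKM in DKO, so DKO 1 and 2 were high and DKO 3 lay among the p21TKO libraries. The log2 difference was -2.94 ± 1.64 (SE) with an adjusted p of 0.576. Cyp2c23, an arachidonic acid epoxygenase known from kidney, was chosen after its values were seen because its order turned with the Y-linked transcripts. It was at 232, 23.6 and 12.2 FPKM in p21TKO against 109, 174 and 146 FPKM in DKO, and without p21TKO 1 it was called lower at a log2 difference of -2.97 and an adjusted p of 0.0132. The other 6 tested genes of the cluster outside the sex-predominant lists had log2 differences between -1.13 and 1.38.

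The Cyp2d genes of chromosome 15 overlapped between groups. Cyp2d10 was at 497, 439.6 and 346 FPKM in p21TKO against 308, 405 and 387 FPKM in DKO. Cyp2d26 was at 343, 537 and 397 FPKM in p21TKO against 408, 304 and 338 FPKM in DKO. Cyp2d40 was at 41, 19.9 and 14 FPKM in p21TKO, against 40.6, 41.5 and 44.2 FPKM in DKO. Its p21TKO 1 value lay among the DKO values, which were close together, and p21TKO 2 and 3 lay under them. Without p21TKO 1 its log2 difference was -1.28, called at an adjusted p of 0.0364, and with all libraries it was -0.87 ± 0.38 (SE) with an adjusted p of 0.527.

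Of the Cyp2j genes on chromosome 4, Cyp2j5, an epoxygenase of liver and kidney, was at 161, 100.4 and 32.4 FPKM in p21TKO against 199.8, 148 and 229.5 FPKM in DKO. Only p21TKO 1 reached the DKO range, and the log2 difference was -1.22 ± 0.58 (SE) with an adjusted p of 0.536. Cyp2j6 was at 17.5, 9.85 and 12 FPKM in p21TKO against 13.6, 15.6 and 18.7 FPKM in DKO. Cyp2j9 was low, at 1.49, 0.731 and 1.79 FPKM in p21TKO against 2.05, 2.72 and 2.2 FPKM in DKO, without overlap. Its log2 difference was -0.53 ± 0.21 (SE) with an adjusted p of 0.523.

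Subfamilies with a single gene varied as follows. Cyp2f2, which activates naphthalene and lies on the portal side of the liver lobule, was at 710.3, 147 and 80.3 FPKM in p21TKO against 241, 452 and 362 FPKM in DKO, so the p21TKO libraries held both the highest value and the lowest values. Cyp2g1, best known from olfactory epithelium, was at 3.25, 0.447 and 0.19 FPKM in p21TKO against 6.09, 2.75 and 3.73 FPKM in DKO. Its log2 difference was -1.37 ± 0.50 (SE) with an adjusted p of 0.523, and without p21TKO 1 it was -1.93, called at an adjusted p of 0.0224. Cyp2r1, the vitamin D hydroxylase of liver, was at 4.42, 8.09 and 5.22 FPKM in p21TKO against 8.11, 4.99 and 7.7 FPKM in DKO, which overlapped.

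Leaving out p21TKO 1 thus gave 5 members called lower (Cyp1a2, Cyp2a5, Cyp2c23, Cyp2d40 and Cyp2g1) and 0 called higher, against 2.83% of all genes lower and 2.36% higher in the same fit. The 2 remaining p21TKO libraries both lacked Y-linked transcripts and had the highest acute phase and neutrophil sums, while 2 of the 3 DKO libraries had Y-linked transcripts. So genotype, Y-linked transcripts and inflammation markers cannot be told apart in that fit.

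The female-predominant P450 genes, which in mouse are higher in adult female liver, varied widely between libraries. The list was Cyp2a4, Cyp2b9, Cyp2b10, Cyp2b13, Cyp2c40, Cyp2c69, Cyp3a16, Cyp3a41a, Cyp3a41b and Cyp3a44. Its 10 genes summed to 12.3, 104 and 51.4 FPKM in p21TKO, against 1869.6, 4.95 and 13.8 FPKM in DKO. DKO 1, the DKO library without Y-linked transcripts, stood far above the other 5, and p21TKO 2 and 3, which also lacked them, came next. None of the 10 was called, and 8 had a negative log2 difference, with a median of -0.94.

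Cyp2a4, a testosterone hydroxylase, was at 0.446, 11.1 and 15.4 FPKM in p21TKO, against 771, 3.13 and 1.22 FPKM in DKO. Among libraries without Y-linked transcripts p21TKO 2 and 3 held 1.44% and 2% of the DKO 1 level. In the same libraries Cyp2a5, its near-copy, held 35.4% and 23.9% of the DKO 1 level.

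Cyp2b9 was at 0, 47.9 and 20.2 FPKM in p21TKO, against 187, 0.322 and 0.072 FPKM in DKO. Cyp2b13 was at 0, 6.41 and 0.907 FPKM in p21TKO, against 68, 0.0248 and 0 FPKM in DKO. Both were highest in the libraries without Y-linked transcripts, in the order DKO 1, p21TKO 2, p21TKO 3. Cyp2b10, the target gene of the constitutive androstane receptor, followed the Y-linked transcripts too but was not highest in DKO 1. Its level was 0.171, 4.15 and 7.4 FPKM in p21TKO, against 3.31, 0.396 and 0.107 FPKM in DKO.

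The female-predominant Cyp3a genes stood far higher in DKO 1 than in any other library. Cyp3a16 was at 0.0299, 0.604 and 0.299 FPKM in p21TKO, against 136, 0.161 and 0.234 FPKM in DKO. Cyp3a44 was at 0, 3.31 and 0.301 FPKM in p21TKO, against 85.2, 0.142 and 0.252 FPKM in DKO. The copies Cyp3a41a and Cyp3a41b, 99.9% identical in coding sequence, were seen in the libraries without Y-linked transcripts alone. Cyp3a41a was at 0, 9.35 and 1.58 FPKM in p21TKO against 46.8, 0 and 0 FPKM in DKO, and Cyp3a41b was at 0, 8.93 and 0.519 FPKM in p21TKO against 81.3, 0 and 0 FPKM in DKO. A library at 0 allows an expected count of up to 3 reads, which for Cyp3a41a is 0.0752 FPKM in p21TKO 1, 0.0677 FPKM in DKO 2 and 0.0655 FPKM in DKO 3, counting error only.

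Cyp2c40 and Cyp2c69 were high in DKO 1, with p21TKO 2 and 3 close to or inside the range of the libraries with Y-linked transcripts. Cyp2c40 was at 8.59, 6.93 and 3.03 FPKM in p21TKO, against 169, 0.662 and 9.01 FPKM in DKO. Cyp2c69 was at 3.05, 5.13 and 1.8 FPKM in p21TKO, against 322, 0.109 and 2.9 FPKM in DKO. Cyp2c69 and Cyp2c67 share 97.7% of their coding sequence.

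**Figure D4:**
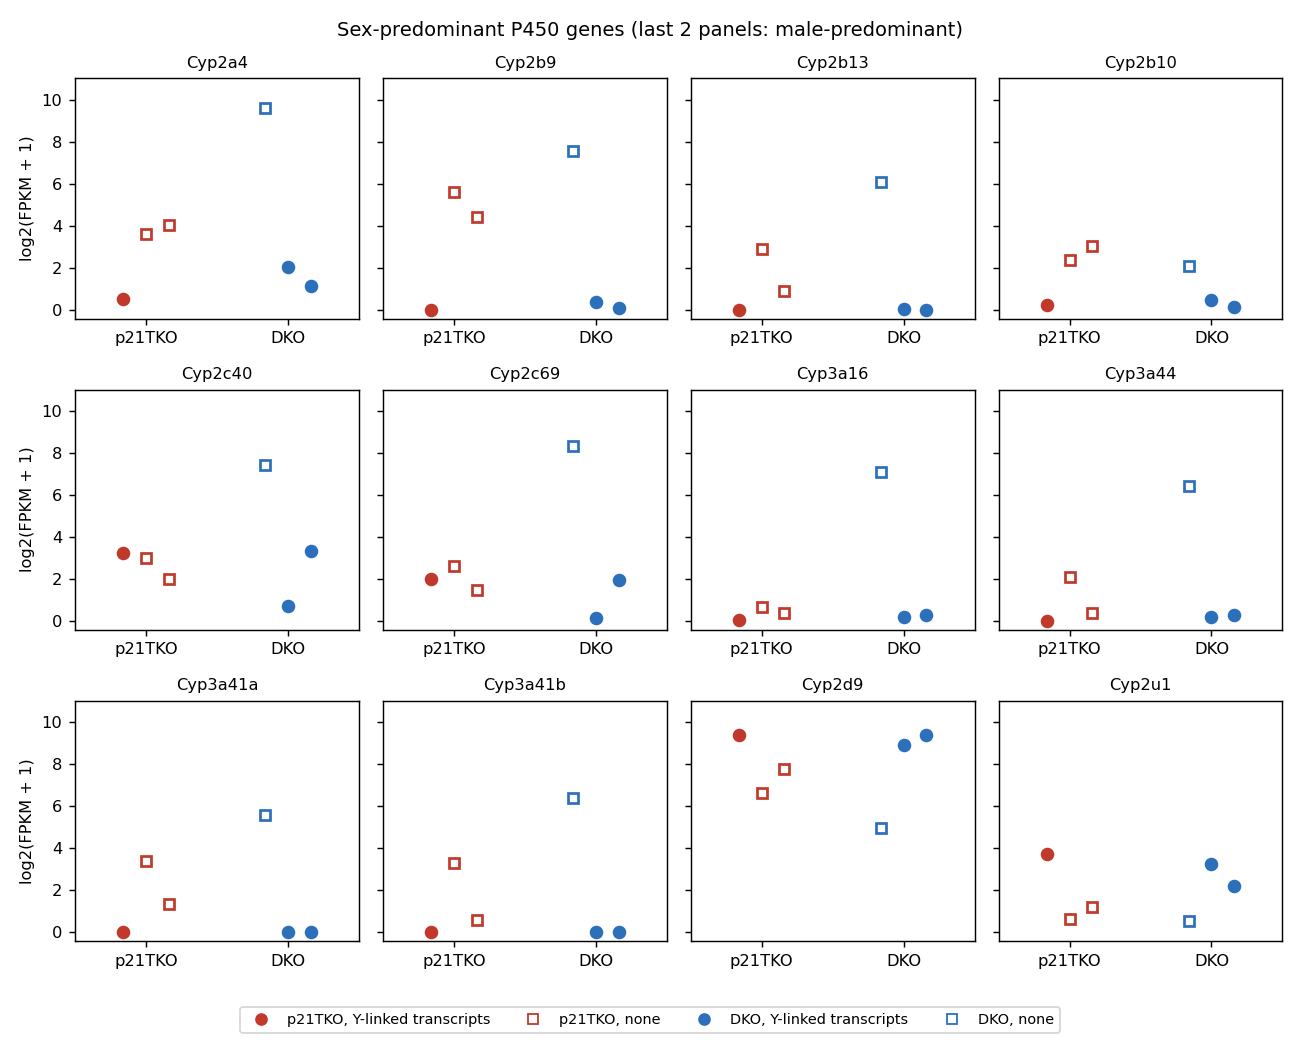
Levels of the 10 female-predominant and, in the last 2 panels, the 2 male-predominant P450 genes, log2(FPKM + 1), by library, p21TKO (red) left of DKO (blue), filled where Y-linked transcripts were present and open where they were not. In 9 of the 10 female-predominant panels the open DKO point is the highest, the exception being Cyp2b10, and in Cyp2d9 and Cyp2u1 the filled points are the highest.

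Of the male-predominant genes, Cyp2d9, a testosterone hydroxylase, was at 661, 97.9 and 213 FPKM in p21TKO, against 29.7, 480.2 and 663 FPKM in DKO. The 3 libraries with Y-linked transcripts were the highest, and p21TKO 2 and 3 lay at 330% and 717% of DKO 1. Cyp2u1, a fatty acid hydroxylase, was at 12.3, 0.557 and 1.3 FPKM in p21TKO, against 0.437, 8.64 and 3.58 FPKM in DKO, with the same split.

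The interaction of genotype with the presence of Y-linked transcripts was fitted after the data were seen, with limma and 2 residual degrees of freedom. It compares p21TKO 2 and 3 against DKO 1 with p21TKO 1 against DKO 2 and 3, so it rests on 1 library in each set. Of the 42 members it called 1, Cyp3a16, with an interaction of -6.35 on the log2 scale, against 0.136% of all genes. Cyp3a16 reached the tested mean of 1 FPKM through DKO 1 alone, the same library that sets its interaction. The call is therefore not taken as a result, and no p-value of a single gene is given for this fit. The interaction was -4.71 for Cyp2a4 and -7.25 for Cyp2c69, both also highest in DKO 1. At an unadjusted p under 0.05 there were 13 members, 9 of them in the female-predominant list, against 7.38% of all genes.

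**Figure D5:**
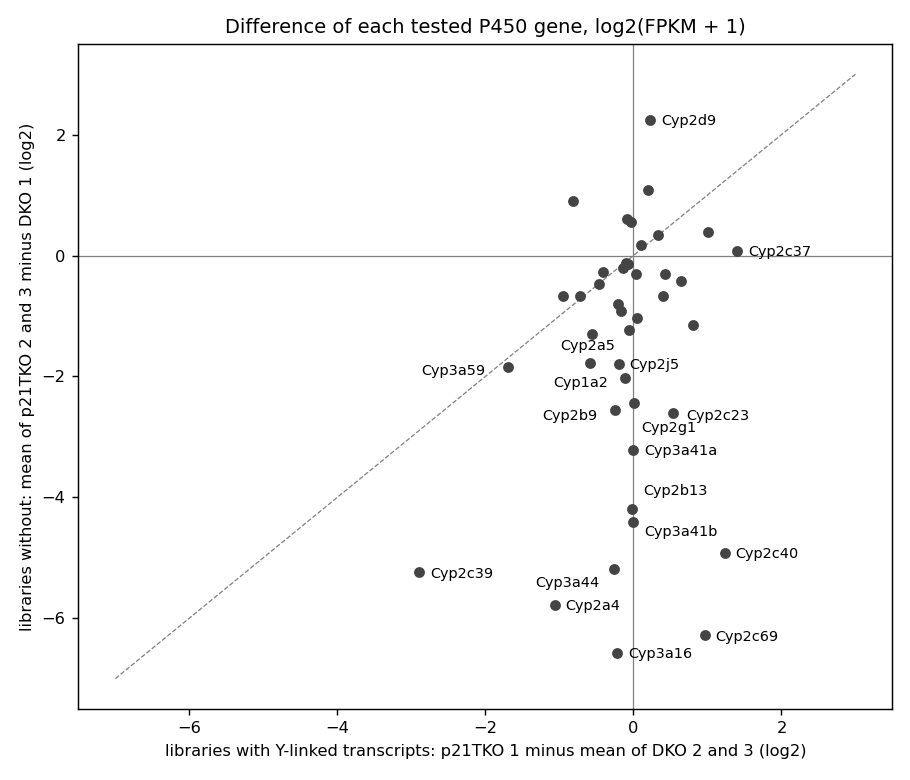
Log2 difference of each of the 42 tested P450 genes on the log2(FPKM + 1) scale among libraries with Y-linked transcripts (x axis, p21TKO 1 minus the mean of DKO 2 and 3) and among libraries without them (y axis, mean of p21TKO 2 and 3 minus DKO 1). The dashed line marks equal differences. Cyp3a59 lies close to it, at -1.69 and -1.85, and Cyp3a16, Cyp2c69, Cyp2a4 and Cyp3a44 lie far under it.

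Sex-biased liver genes outside the P450 families 1 to 3 gave a second view of the same libraries. Of the female-predominant ones, Sult2a1, a steroid sulfotransferase chosen after its values were seen, was at 0, 180.2 and 46.4 FPKM in p21TKO, against 68.1, 0 and 0 FPKM in DKO. A1bg was at 0.043, 0.309 and 0 FPKM in p21TKO, against 49.2, 0.0581 and 0 FPKM in DKO. Hao2 was at 0.0252, 0.0425 and 0.0541 FPKM in p21TKO, against 11.6, 0 and 0 FPKM in DKO. Acot3, a thioesterase, was at 0.601, 0.456 and 3.15 FPKM in p21TKO, against 28.5, 0.838 and 1.83 FPKM in DKO. So p21TKO 2 and 3 were high for Sult2a1 and low for A1bg, Hao2 and Acot3, as they were for Cyp3a16 and Cyp2c69. A1bg, Hao2 and Acot3 were named for their small p in p21TKO against DKO, which favours this order. A1bg and Hao2 reached the tested mean through DKO 1 alone. Outside the naming rule, Cyp17a1 was at 44.5 and 3.38 FPKM in p21TKO 2 and 3, against 33.2 FPKM in DKO 1. Sult3a1 was at 20.9 and 7.06 FPKM there, against 161 FPKM.

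Male-predominant genes of the same kind were highest in the libraries with Y-linked transcripts. Hsd3b5, a steroid reductase, was at 127, 0.0281 and 0 FPKM in p21TKO, against 3.82, 151 and 180.1 FPKM in DKO. Slco1a1, an anion transporter, was at 97.3, 0.619 and 0.406 FPKM in p21TKO, against 22.6, 75.5 and 113 FPKM in DKO. Selenbp2, a selenium-binding protein, was at 489.5, 2.53 and 0.781 FPKM in p21TKO, against 36.2, 345 and 337 FPKM in DKO. Cyp7b1, an oxysterol hydroxylase, was at 115, 3 and 2.2 FPKM in p21TKO, against 15.4, 58.1 and 92.1 FPKM in DKO. In each of the 4, DKO 1 lay between the libraries with Y-linked transcripts and p21TKO 2 and 3. The 4 were named for their small p in p21TKO against DKO, which favours this order. Elovl3 of the same list shared it, and Mup20, C6, Ugt2b38, Cyp4a12a and Cyp4a12b did not. Mup20 was at 25.9 FPKM in DKO 1 against 26.5 and 5.65 FPKM in p21TKO 2 and 3, and Cyp4a12a at 0 against 0.63 and 0.656 FPKM. Of the 10 genes on this list, 0 were called and all 10 had a negative difference, while 1 of the 3 p21TKO libraries and 2 of the 3 DKO libraries had Y-linked transcripts. Among the 9 tested female-predominant genes outside the families 0 were called and 5 were negative.

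Regulators of P450 genes were tested in the same fit. Of 19 tested, 0 were called, and 13 had a negative difference, against 49.8% of all genes. The groups did not overlap for 2 lower genes and 1 higher gene, against 8.49% of all genes lower and 6.93% higher. The higher gene, named here outside the naming rule, was Hnf4a. It was at 164, 158 and 151 FPKM in p21TKO against 118, 137 and 147 FPKM in DKO, with a limma adjusted p of 0.731. Ahr, the aryl hydrocarbon receptor, was at 3.07, 4.17 and 7.88 FPKM in p21TKO, against 10.6, 6.98 and 10.5 FPKM in DKO. Ghr, the growth hormone receptor, was at 61.1, 17.7 and 5.82 FPKM in p21TKO, against 56.3, 63.2 and 62.2 FPKM in DKO, with p21TKO 1 among the DKO values. Nr3c1, the glucocorticoid receptor, was at 7.45, 7.14 and 4.74 FPKM in p21TKO, against 10.2, 7.89 and 9.98 FPKM in DKO, without overlap. Ppara, the fatty acid receptor, was at 9.25, 13.1 and 9.04 FPKM in p21TKO, against 25.5, 9.72 and 31 FPKM in DKO. The adjusted p of Ahr, Ghr, Nr3c1 and Ppara was between 0.523 and 0.536.

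Of the 9 genes for electron supply and heme, 0 were called, 6 were negative (49.8% of all genes) and 2 did not overlap, both lower (8.49% of all genes). Hmox1, which breaks down heme, was at 9.82, 45.9 and 59.6 FPKM in p21TKO, against 6.7, 12.7 and 11.3 FPKM in DKO, and was highest in p21TKO 2 and 3. Cyb5b, a cytochrome b5, was at 68, 62.7 and 38.7 FPKM in p21TKO, against 94.2, 68.7 and 91.7 FPKM in DKO. Pgrmc1, a heme-binding partner of P450s, was at 765, 364 and 321 FPKM in p21TKO, against 641, 666 and 632 FPKM in DKO. Fech, the last enzyme of heme synthesis, was at 11.4, 11.6 and 9.43 FPKM in p21TKO, against 12, 11.7 and 14.9 FPKM in DKO.

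The enzymes that act after P450s, which add glutathione, glucuronic acid or sulfate, were tested in the same fit. Of 24 tested, 0 were called, and 21 had a negative difference, against 49.8% of all genes, with a median of -0.46. The groups did not overlap for 3, all lower, against 8.49% of all genes. Gstm3, a glutathione transferase, was at 37.8, 16.6 and 10.4 FPKM in p21TKO, against 53.7, 41.7 and 44.4 FPKM in DKO. Ugt1a6a, a glucuronosyltransferase, was at 0.755, 0.667 and 0.351 FPKM in p21TKO, against 1.72, 1.07 and 1.46 FPKM in DKO. Ugt2a3 was at 102, 40.9 and 36.1 FPKM in p21TKO against 127, 91.8 and 131 FPKM in DKO, and Ugt2b1 at 224, 20.1 and 11.7 FPKM in p21TKO against 160.1, 262 and 318 FPKM in DKO. Both were lowest in p21TKO 2 and 3.

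Since many P450s belong to the pericentral hepatocytes, other genes of that zone were set beside them. Of 8 tested, 0 were called, 7 were negative (49.8% of all genes) and 3 did not overlap, all lower (8.49% of all genes), with a median of -0.57. Rhbg, an ammonia transporter, was at 1.31, 1.08 and 0.744 FPKM in p21TKO, against 2.54, 2.76 and 2.3 FPKM in DKO, and had the smallest adjusted p of the list, 0.339. Gulo, the vitamin C enzyme of mouse, was at 223, 117 and 49.9 FPKM in p21TKO, against 254, 241 and 275 FPKM in DKO. Slc1a2, a glutamate transporter, was at 14, 16.3 and 6.66 FPKM in p21TKO, against 22.9, 17.9 and 18.6 FPKM in DKO. Aldh1a1, a retinal dehydrogenase, was at 192, 73.3 and 39.4 FPKM in p21TKO, against 149, 187 and 258 FPKM in DKO.

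Of the 9 periportal genes, 0 were called, 5 were negative (49.8% of all genes) and 2 did not overlap, both higher (6.93% of all genes). Hsd17b13, a lipid droplet enzyme, was at 173, 258 and 188 FPKM in p21TKO, against 90.8, 121 and 118 FPKM in DKO. Arg1, the urea cycle arginase, was at 674, 1272 and 1456 FPKM in p21TKO, against 642, 666 and 547 FPKM in DKO. Gls2, a glutaminase, was at 95.6, 61 and 35 FPKM in p21TKO, against 79.8, 92.4 and 80 FPKM in DKO, and Pck1, of glucose synthesis, at 1524, 978 and 376 FPKM in p21TKO against 1077, 1387 and 826 FPKM in DKO.

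The remaining members were low or unseen. Cyp1b1, Cyp2a22, Cyp2ab1, Cyp2b19, Cyp2c65, Cyp2d11, Cyp2d12, Cyp2d34, Cyp2j8, Cyp2s1, Cyp2t4 and Cyp3a57, 12 genes in all, were above 0 in some library but under a mean of 1 FPKM and were not tested. A further 7, Cyp2b23, Cyp2c66, Cyp2j7, Cyp2j11, Cyp2j12, Cyp2j13 and Cyp2w1, were at 0 in all 6 libraries, with 0 recovered reads in each, which allows an expected count of up to 3 reads per library.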

How the data were processed

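The authors deposited 1 FPKM value per gene and library, normalised to transcript length and library size. RNA extraction used TRIzol and library preparation a NEBNext Ultra kit, per the labels' protocols, and no source used here says whether strand was kept. Tools named in the submitters' processing notes are DESeq2 1.20.0, featureCounts 1.5.0-p3, HISAT2 2.0.5, fastp and CASAVA 1.8. The builds named there, hg38 and GRCh38, are human although every gene identifier is of mouse, so the authors' build is not known here. Gene positions were looked up by identifier in GENCODE M21 (GRCm38).

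Reads per gene were recovered as FPKM times exon length over a factor found for each library, and came out whole within 0.02 for 99.3% of values. FPKM are not counts, so genes with a mean of at least 1 FPKM over the 6 libraries were compared on log2(FPKM + 1). limma 3.58.1 in R 4.3.3 was run two-sided with a trend, p-values were adjusted by Benjamini-Hochberg over every gene tested, and the threshold was an adjusted p of 0.05. An exact permutation test of 3 against 3 libraries cannot go below a two-sided p of 0.1 and was not used. The fit was tested on simulated data. Libraries with over 1 FPKM of Ddx3y were taken to hold Y-linked transcripts. Identity between copies was computed on coding sequences of GENCODE M21, and 53 of the 61 members had a promoter in the RefSeq table.

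The members and gene lists were chosen with earlier results of these data known. Genes named were, per subfamily, the up to 3 tested members of highest mean and the up to 2 of smallest p, members with p under 0.05 whose groups did not overlap, and those of the sex-predominant lists, 34 in all, with up to 4 of smallest p per other list; exceptions are stated, and 1 gene of a list is not reported here. The alternatives were a pseudocount of 0.1, no filter, a mean of at least 5 FPKM, scaling by median of ratios, no trend, a replicate block, voom on recovered reads, a term for Y-linked transcripts and leaving out each library.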

Additional observations from a re-analysis of the deposited data

Results flagged for a closer look

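For 6 P450 genes every p21TKO library without Y-linked transcripts lay on one side of DKO 1, and p21TKO 1 lay on the other side of both DKO 2 and DKO 3. The share of all tested genes with this order was not counted, so the number has no background beside it. These are untested contrasts of genotype between libraries without and with Y-linked transcripts, each with 1 library on one side. The difference of the log2 differences, without minus with, was -1.08 for Cyp2c67, -3.15 for Cyp2c23, -7.25 for Cyp2c69, -1.95 for Cyp2f2, -0.74 for Cyp3a11 and 1.73 for Cyp3a13. Cyp2c67, chosen after its values were seen, was at 212, 46.7 and 31.5 FPKM in p21TKO against 79.7, 207 and 204 FPKM in DKO. The interaction in limma has 1 library on one side of each set, so no p-value is given for these 6.

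Cyp3a16 had an interaction of -6.35, also given without a p-value, because it reached the tested mean through DKO 1 alone. Its p21TKO 2 and 3 values were 0.444% and 0.22% of DKO 1, and p21TKO 1 was 15.1% of the mean of DKO 2 and 3, where all 3 libraries were under 1 FPKM. DKO 1 is the only DKO library without Y-linked transcripts, so this interaction cannot be checked without it.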

How the results depend on the processing

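No member was called higher under any alternative, and none lower except without p21TKO 1, where 5 were; leaving out a library gave between 0 and 5 called lower. The median over members was -0.15 without DKO 1, which moved it by more than the spread between libraries, and lay between -0.82 and -0.15 when each library was left out in turn; under the other alternatives it stayed negative. For single genes named by the rule, 32 values changed sign and 435 values kept their direction and side of the threshold. Of these genes 4 (Cyp1a2, Cyp2a5, Cyp2d40 and Cyp2g1) were called in the fit without p21TKO 1 and in no other, and the cause was not tested. Over all genes that fit called 270 lower and 225 higher, against 4 lower and 3 higher with every library; voom called 1 lower and 0 higher, and no filter the same. With voom on recovered reads the log2 difference was 0.53 for Cyp2b13, -0.0055 for Cyp2c50, 1.77 for Cyp3a41a and 0.88 for Cyp3a41b. With a term for Y-linked transcripts it was -1.40 for Cyp2b9, -0.11 for Cyp2c50, 0.70 for Cyp2u1 and 0.057 for Cyp3a11. With a pseudocount of 0.1 it was 0.59 for Cyp3a41a. Leaving out each library in turn gave ranges across 0 for 15 genes, from -3.10 to 1.12 for Cyp2a4, -1.80 to 1.26 for Cyp2b13, -0.64 to 3.09 for Cyp2b9, -2.62 to 0.73 for Cyp2c40, -0.43 to 0.32 for Cyp2c50, -3.11 to 0.98 for Cyp2c69, -0.30 to 0.0059 for Cyp2c70, -1.23 to 0.99 for Cyp2d9, -1.08 to 0.50 for Cyp2u1, -0.46 to 0.064 for Cyp3a11, -0.12 to 1.09 for Cyp3a13, -3.33 to 0.11 for Cyp3a16, -1.21 to 1.58 for Cyp3a41a, -1.88 to 1.30 for Cyp3a41b and -2.55 to 0.57 for Cyp3a44.

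Deviations of same-numbered libraries from their group means had correlations of -0.44, -0.49 and -0.07 over genes. At each number 1 library had Y-linked transcripts and the other had none, so these values cannot show whether the numbers are pairs. The numbers were not taken as pairs. With the number as a replicate block the median was -0.52, 0 members were called, and over all genes 0 were called. A gene at 0 in a library had 0 recovered reads, which allows an expected count of up to 3. Reads of close copies may be divided between them, and the low number of libraries leaves genotype, Y-linked transcripts and acute phase genes entangled.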

Other observations

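Hyphenated P450 names, 23 in all, were left out by the naming rule. Of them 3, chosen after their values were seen, were tested and did not overlap between groups, all lower in p21TKO. Over all tested genes the groups did not overlap for 8.49% lower and 6.93% higher. Cyp2d36-ps was at 0.561, 0.177 and 0.0251 FPKM in p21TKO, against 2.54, 3.38 and 3.33 FPKM in DKO. Its log2 difference was -1.72 ± 0.20 (SE). In p21TKO it held 16, 6 and 1 recovered reads and reached the tested mean through DKO alone, so no p-value is given. Cyp2d37-ps was at 10.5, 4.55 and 2.43 FPKM in p21TKO, against 28.9, 17.4 and 30.7 FPKM in DKO, with a limma adjusted p of 0.412. Cyp2d38-ps was at 2.86, 4.26 and 0.924 FPKM in p21TKO, against 13.4, 5.46 and 20.8 FPKM in DKO, with an adjusted p of 0.515. Reads of these transcripts may be divided with the Cyp2d genes they resemble, whose own groups overlapped.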
